A study of Homo sapiens with 6 samples.

Results

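The RNA interference machinery was described here through 10 genes, which were chosen by name from the gene TPM table as the Argonautes (AGO1, AGO2, AGO3 and AGO4), the Dicer and Drosha proteins with their partners (DICER1, TARBP2, DROSHA and DGCR8), the export receptor XPO5 and the GW182 protein TNRC6A. All 10 had 1 row each among the 63241 gene rows, and all 10 were among the 14602 genes that averaged 1 TPM or more and entered the test. Poly(A) RNA was sequenced from macrophages derived from THP-1, an established human monocytic leukaemia line, grown in RPMI medium with FBS, transfected with an siRNA and labelled with a time of 24 h. The siNC group (genotype WT, negative control siRNA) and the siDUSP6 group (genotype DUSP6 knockdown, siRNA against DUSP6, a phosphatase of ERK) had 3 libraries each. Both groups received an siRNA, so the comparison is between siRNAs, and no untransfected cells were analysed here. For siDUSP6 replicates 2 and 3 the label for treatment names siRNA to DUSP7 and to DUSP8, whereas their titles and genotype name DUSP6. The question addressed was whether the capacity of the cells for siRNA, read from the mRNA of this machinery, differed between the groups.

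An siRNA is a short double-stranded RNA that enters an Argonaute protein, which keeps 1 strand and uses it to find matching transcripts. Of the human Argonautes AGO2 is the well-established slicer, which cuts a fully matched target, while all of them can carry microRNAs and repress transcripts through GW182 proteins. Endogenous microRNAs are first cut from their primary transcripts in the nucleus by DROSHA with DGCR8, exported by exportin-5 and cut again by DICER1 with its partner TARBP2, steps that a transfected siRNA duplex does not need.

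The values were TPM (transcript abundance scaled to a common library total), which scale each gene by length and by the library total and keep no sequencing depth. The depth behind each value is therefore unknown. Log2(TPM + 1) correlated across genes at 0.982 to 0.985 between libraries of the same group and at 0.981 to 0.983 between groups. The labels do not say that libraries came from separate cultures, so the spread behind each p-value is that among these libraries and may be technical. DUSP6 itself measured 359, 368 and 378 TPM in siNC replicates 1 to 3 and 227, 218 and 222 TPM in siDUSP6 replicates 1 to 3 (log2 change -0.73 ± 0.0267 SE, adjusted p by limma = 8.667e-05), so the targeted transcript was lower in every siDUSP6 library. Of 15 macrophage markers 13 averaged 1 TPM or more and were tested, of which 1 rose, 0 fell and 12 did not pass. The LPS co-receptor CD14 rose from 29.9 ± 3.26 to 40.8 ± 1.18 TPM (adjusted p by limma = 0.03332). Among those that did not pass, CSF1R (305.2 to 292.6 TPM), ITGAM (30.6 to 26.85 TPM), TYROBP (792.3 to 761.7 TPM) and LYZ (14.7 to 12.3 TPM) lay lower in every siDUSP6 library. Of the tested markers only CD14 lay higher in every siDUSP6 library, and 25.1% of all genes did not overlap between groups. CD14 missed the threshold in 5 of the 6 fits that leave out a library and in 9 of 17 alternatives in all (adjusted p up to 0.3481). MRC1 and MARCO, which mark some macrophage states, lay below 1 TPM. The summed macrophage markers ran from 5872 to 6016 TPM in siNC and from 5832 to 5919 TPM in siDUSP6. Summed epithelial markers ran from 0.51 to 0.84 and from 0.47 to 0.77 TPM, stromal markers from 16.4 to 24.0 and from 18.6 to 20.05 TPM, and lymphocyte markers from 4.68 to 5.89 and from 3.75 to 5.21 TPM. In bulk RNA, fewer cells of a type and less RNA per cell cannot be told apart, and a part of CD14 or of these marker sums in the results was not tested.

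None of the 10 genes of the machinery passed the test between siDUSP6 and siNC. limma with Benjamini-Hochberg adjustment over all 14602 genes called 0 of 10 members, against 3.86% of all genes tested. At an unadjusted p under 0.05 there were 3 of 10 members (AGO2, AGO4 and XPO5), against 19.2% of all genes. The libraries of the groups did not overlap for 2 of 10 (AGO2, higher in siDUSP6, and XPO5, lower), against 25.1% of all genes. With 10 members, 1 gene moves such a share by 10 percentage points, and nothing is read from these counts beyond the absence of calls. Log2 fold changes ran from -0.40 for AGO4 to 0.16 for AGO2, with a median of -0.07 over the members and -0.03 over all genes. The median size without sign was 0.09 over the members and 0.09 over all genes tested.

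**Figure D1:**
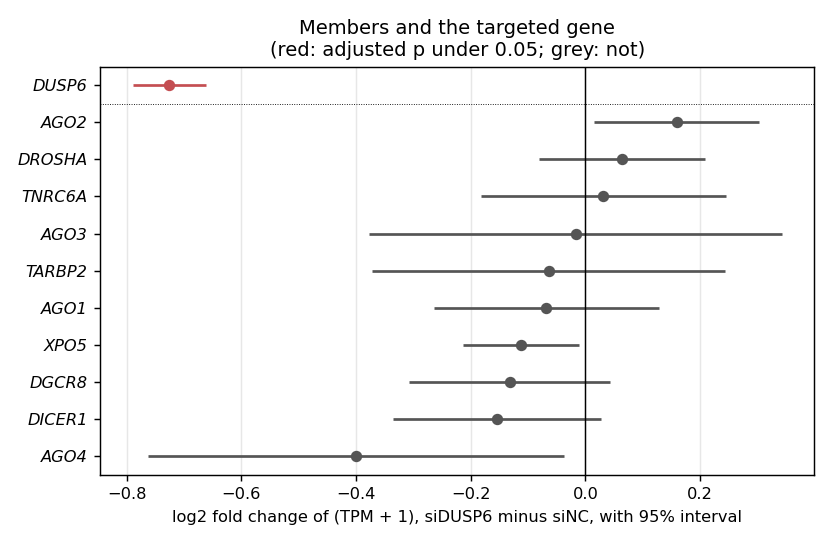
Log2 fold change of (TPM + 1), siDUSP6 minus siNC, on the x axis for the 10 members and for the targeted gene DUSP6, with 95% intervals from limma over 3 libraries a group. No member was called; the DUSP6 interval, from -0.79 to -0.66, lies apart from those of 9 members and meets only that of AGO4, which reaches -0.76.

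The 95% intervals state what sizes of change these libraries leave room for. All 10 intervals lay within a 2-fold change in either direction on the log2(TPM + 1) scale, beside 13849 of all 14602 genes tested. Within a 1.5-fold change lay 9 of 10, the exception being AGO4, beside 12111 of the 14602 genes. The narrowest interval was that of XPO5, from -0.21 to -0.01, and the widest was that of AGO4, from -0.76 to -0.04. Those of AGO3 (-0.38 to 0.34) and TARBP2 (-0.37 to 0.24) were nearly as wide as that of AGO4. These intervals are not adjusted for the number of genes tested, and a p that misses the threshold does not show that the groups were alike.

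Among the Argonautes AGO2 was the most abundant, and it was the 1 Argonaute whose siDUSP6 libraries all lay above the siNC libraries. AGO2 (ENSG00000123908, chromosome 8, 140520156 to 140635619, minus strand, GRCh38) measured 52.0, 51.95 and 53.5 TPM in siNC replicates 1 to 3 and 56.9, 64.6 and 55.05 TPM in siDUSP6 replicates 1 to 3. The siNC libraries lay close together, whereas siDUSP6 replicate 2 stood above the other two siDUSP6 libraries. The means were 52.5 ± 0.864 and 58.9 ± 5.04 TPM (SD, n = 3 each), or 0.16 ± 0.0607 (SE) as a log2 change, with an adjusted p by limma of 0.221. Without siDUSP6 replicate 2 the log2 fold change was 0.09 (adjusted p = 0.3099).

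The other Argonautes lie side by side on the plus strand of chromosome 1, in the order AGO4 (35808172 to 35857890), AGO1 (35869808 to 35930528) and AGO3 (35930718 to 36072500). AGO4 had the lowest fold change of the machinery. It measured 12.1, 9.41 and 12.8 TPM in siNC replicates 1 to 3 and 8.36, 6.92 and 10.01 TPM in siDUSP6 replicates 1 to 3. The groups overlapped, since siNC replicate 2 lay below siDUSP6 replicate 3. The means were 11.4 ± 1.79 and 8.43 ± 1.55 TPM (log2 change -0.40 ± 0.152 SE, adjusted p by limma = 0.2195). AGO1 measured 9.43, 8.97 and 8.33 TPM in siNC and 7.97, 8.1 and 9.32 TPM in siDUSP6, with overlapping groups (log2 change -0.07 ± 0.0823 SE, adjusted p by limma = 0.7123). Its log2 change was -0.03 without siNC replicate 1 or siDUSP6 replicate 1, -0.04 without siDUSP6 replicate 2, -0.11 without siNC replicate 3 and -0.13 without siDUSP6 replicate 3. AGO3, the lowest Argonaute, measured 6.05, 4.72 and 5.26 TPM in siNC and 4.32, 6.61 and 5.02 TPM in siDUSP6 (log2 change -0.02, adjusted p by limma = 0.9684). Its value in siDUSP6 replicate 2 was the highest of all 6 libraries and that in siDUSP6 replicate 1 the lowest. The sign of the AGO3 difference turned after median-of-ratios scaling (0.0043) and after quantile normalization (0.0134). Without siDUSP6 replicate 1, siDUSP6 replicate 3 or siNC replicate 1 it was also above 0 (up to 0.10).

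Summed over the 4 genes, Argonaute mRNA amounted to 79.6, 75.05 and 79.9 TPM in siNC replicates 1 to 3 and to 77.6, 86.2 and 79.4 TPM in siDUSP6 replicates 1 to 3. These sums overlapped between the groups, at means of 78.2 ± 2.7 and 81.1 ± 4.54 TPM (SD, n = 3 each). AGO2 made up 65.4%, 69.2% and 66.95% of the sum in siNC and 73.4%, 74.9% and 69.3% in siDUSP6. The siDUSP6 shares were all above the siNC shares, but siDUSP6 replicate 3 (69.33%) exceeded siNC replicate 2 (69.22%) by little. The AGO4 share averaged 14.6 ± 1.82% in siNC and 10.5 ± 2.31% in siDUSP6, with overlapping ranges. The AGO1 share (11.4 ± 0.85% and 10.5 ± 1.18%) and the AGO3 share (6.82 ± 0.688% and 6.52 ± 1.06%) also overlapped. These sums and shares are descriptions with no test, because they combine chosen genes. No cause of the higher AGO2 share was tested.

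**Figure D2:**
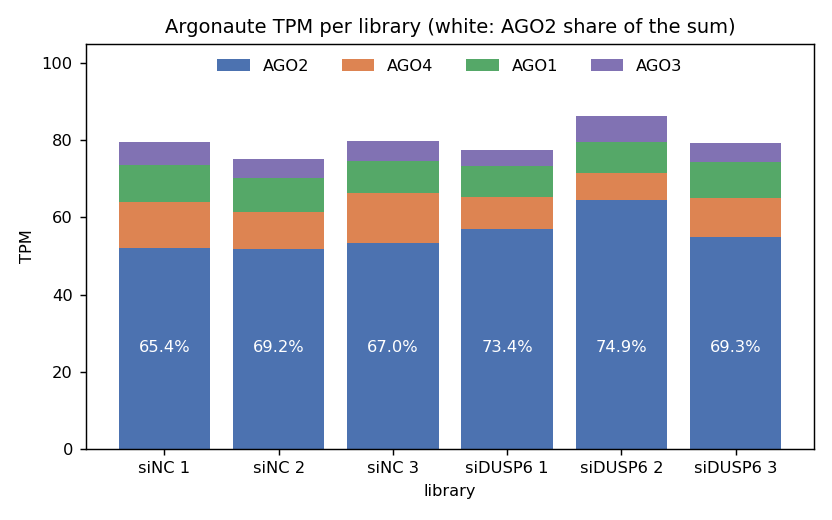
Stacked bars of TPM (y axis) for AGO2, AGO4, AGO1 and AGO3 in each of the 6 libraries (x axis), with the AGO2 share of the sum in white. The sums overlap between the groups, at 75.05 to 79.9 TPM in siNC and 77.6 to 86.2 TPM in siDUSP6, and the AGO2 share runs from 65.4% to 69.2% and from 69.3% to 74.9%.

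In the nuclear Microprocessor, DROSHA is the ribonuclease that cuts primary microRNA transcripts and DGCR8 is the RNA-binding partner that recognises their hairpins. DROSHA (chromosome 5, 31400497 to 31532196, minus strand) measured 42.8, 45.95 and 43.5 TPM in siNC and 43.1, 45.5 and 50.08 TPM in siDUSP6, in replicate order. The groups overlapped, with siDUSP6 replicate 3 as the highest library (log2 change 0.06 ± 0.0609 SE, adjusted p by limma = 0.6281). The log2 change was 0.0059 without siDUSP6 replicate 3 and 0.11 without siDUSP6 replicate 1, and with siDUSP6 replicate 1 alone against siNC the sign turned (-0.03). DGCR8 (chromosome 22, 20080232 to 20111877, plus strand) measured 13.4, 15.7 and 14.3 TPM in siNC and 13.2, 12.4 and 13.7 TPM in siDUSP6. Its groups overlapped through siNC replicate 1 (log2 change -0.13 ± 0.0738 SE, adjusted p by limma = 0.3932), and without siNC replicate 2 the log2 fold change was -0.08. The ratio of DROSHA to DGCR8 in TPM, a ratio of length-scaled levels, was 3.21, 2.93 and 3.03 in siNC and 3.26, 3.68 and 3.65 in siDUSP6. These ratios did not overlap, by a margin of 0.05 between siNC replicate 1 and siDUSP6 replicate 1, and they were not tested. They divide a gene with a positive log2 change by a gene with a negative log2 change. How often ratios of other gene pairs overlap was not computed.

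The DGCR8 transcript is itself known as a Microprocessor substrate, because it carries the hairpins of miR-3618 and miR-1306, and cutting there lowers DGCR8 mRNA. The mature sequences of these hairpins (RefSeq, GRCh38.p14, chromosome 22, plus strand) are shown because they place that site within the measured transcript. The capitals mark the seed, bases 2 to 8 from the 5′ end, and the 3 seeds differ from each other.
hsa-miR-3618: uGUCUACAuuaaugaaaagagc
hsa-miR-1306-5p: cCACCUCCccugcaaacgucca
hsa-miR-1306-3p: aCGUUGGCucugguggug
The first (20085797 to 20085818) lies in an exon of 3 annotated DGCR8 transcripts and in the coding sequence of 0. The arms of miR-1306 (20086072 to 20086093 and 20086112 to 20086129) lie in an exon of 5 and in the coding sequence of 4. The rows of the microRNA genes MIR3618 and MIR1306 were listed at 0 TPM in all 6 libraries, and mature microRNAs are too short for a poly(A) library of this kind, so their levels were not measured here.

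Exportin-5, encoded by XPO5, carries precursor microRNAs from the nucleus to the cytoplasm. XPO5 (chromosome 6, 43522330 to 43576075, minus strand) measured 37.8, 40.2 and 37.1 TPM in siNC and 34.6, 35.75 and 35.85 TPM in siDUSP6. Every siDUSP6 library lay below every siNC library, and the gap between the nearest pair was smaller than the range within siNC. The means were 38.4 ± 1.6 and 35.4 ± 0.695 TPM (SD, n = 3 each), or -0.11 ± 0.0427 (SE) as a log2 change, with an adjusted p by limma of 0.22. The annotated span of POLR1C, an RNA polymerase subunit gene, lies on the opposite strand over 40090 bases of that of XPO5. POLR1C had means of 55.4 TPM in siNC and 62.5 TPM in siDUSP6. The overlaps given here are of whole gene spans, introns included, and shared exon bases were not counted. The kit was stranded, but the labels do not say whether counting used the strand, so reads of any shared exons could have been mixed. AGO2 shares 671 bases of its own strand with AC067931.1 (means of 3.61 TPM in siNC and 3.44 TPM in siDUSP6). DGCR8 shares 12 bases with TRMT2A on the opposite strand (22.99 and 18.59 TPM).

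DICER1 cuts precursor microRNAs into the duplex that Argonautes load. DICER1 (chromosome 14, 95086228 to 95158010, minus strand) measured 10.5, 11.4 and 12.7 TPM in siNC and 10.6, 10.07 and 10.04 TPM in siDUSP6. The siDUSP6 libraries lay close together at the lower edge of the siNC range, and the groups overlapped only between siNC replicate 1 (10.54 TPM) and siDUSP6 replicate 1 (10.59 TPM). The means were 11.5 ± 1.07 and 10.2 ± 0.309 TPM, or -0.15 ± 0.0761 (SE) as a log2 change, with an adjusted p by limma of 0.3358. The log2 change was -0.09 without siNC replicate 3. TARBP2, a double-stranded RNA-binding partner of Dicer (chromosome 12, 53500921 to 53506431, plus strand), measured 18.5, 14.25 and 17.0 TPM in siNC and 13.3, 17.7 and 16.6 TPM in siDUSP6. Its spread within each group was wider than the difference between them (log2 change -0.06 ± 0.129 SE, adjusted p by limma = 0.8397), and the sign turned without siNC replicate 1 (0.01) or siDUSP6 replicate 1 (0.05). PRKRA, the other known double-stranded RNA-binding partner of Dicer, stood at 36.3 ± 1.43 and 36.3 ± 0.609 TPM (log2 change 0.0005, adjusted p by limma = 0.9963). Relative to DICER1, AGO2 stood at 4.94, 4.57 and 4.22 times its TPM in siNC and at 5.38, 6.41 and 5.48 times in siDUSP6. Those ratios did not overlap and were not tested. They divide the member with the highest log2 change, whose groups did not overlap on its own, by a member with a negative log2 change. How often ratios of other gene pairs overlap was not computed, so nothing further is read from them. TARBP2 stood at 1.756, 1.253 and 1.343 times the TPM of DICER1 in siNC and at 1.252, 1.754 and 1.654 times in siDUSP6, which overlapped.

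TNRC6A is a GW182 scaffold that binds Argonautes and recruits the deadenylase complexes which shorten the poly(A) tail of a microRNA target. TNRC6A (chromosome 16, 24610209 to 24827632, plus strand) measured 9.85, 11.55 and 12.4 TPM in siNC and 11.97, 11.6 and 10.97 TPM in siDUSP6. All siDUSP6 libraries lay within the siNC range (log2 change 0.03 ± 0.0894 SE, adjusted p by limma = 0.8943), and the sign turned without siNC replicate 1 (-0.05). Its paralogs were not called either. TNRC6B measured 10.2 ± 1.84 and 8.88 ± 1.13 TPM (adjusted p by limma = 0.5387), and TNRC6C measured 1.92 ± 0.66 and 1.97 ± 0.584 TPM (adjusted p by limma = 0.9573).

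The order of the members by TPM was alike at the top in both groups. In siNC it ran AGO2, DROSHA, XPO5, TARBP2, DGCR8, DICER1, AGO4, TNRC6A, AGO1 and AGO3, from a mean of 52.5 down to 5.34 TPM. Neighbours whose siNC ranges overlapped were TARBP2 with DGCR8, DICER1 with AGO4 and AGO4 with TNRC6A. In siDUSP6 the first 5 and the last member held the same places, and TNRC6A (11.5 TPM), DICER1 (10.2 TPM), AGO1 (8.46 TPM) and AGO4 (8.43 TPM) followed each other between them. Of neighbours in siDUSP6 the ranges overlapped for TARBP2 with DGCR8 and for AGO1 with AGO4. AGO2 lay at the 82.2 percentile of mean TPM among tested genes, DROSHA at the 78.5 and XPO5 at the 74.5 percentile, whereas AGO3 lay at the 31.2 percentile. The sum of all 10 members was 212 to 217 TPM in siNC and 204 to 219 TPM in siDUSP6.

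**Figure D3:**
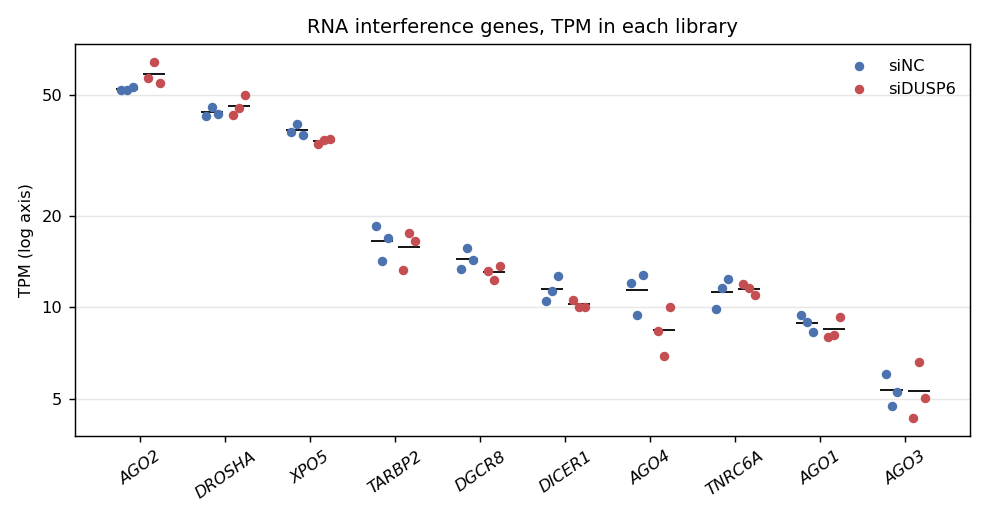
TPM on a log y axis for each of the 10 members (x axis, ordered by the siNC mean), with 1 point per library, blue for siNC and red for siDUSP6, and black lines at the group means. The groups overlap for every member except AGO2 (siDUSP6 at 55.05 to 64.6 TPM, siNC at 51.95 to 53.5 TPM) and XPO5 (34.6 to 35.85 TPM against 37.1 to 40.2 TPM).

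The within-group spread, as a pooled SD of log2(TPM + 1), was 0.05 for XPO5, 0.09 for AGO2 and 0.08 for DROSHA, and 0.23 for AGO4, 0.21 for AGO3 and 0.19 for TARBP2, beside a median of 0.10 over all genes tested. Relative to this spread, the difference between groups was 2.46 SD for XPO5, 1.85 SD for AGO2, 1.76 SD for AGO4 and 1.69 SD for DICER1. For AGO3, TNRC6A and TARBP2 it was 0.08, 0.27 and 0.33 SD, against a median of 0.92 SD over all genes.

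In a list of 34 cofactors of microRNA processing and Argonautes 32 were tested, of which 1 rose, 2 fell and 29 did not pass, with a median log2 fold change of -0.04. Called genes made up 9.38% of them, beside 3.86% of all genes tested. XPO1, the main nuclear export receptor for proteins, fell from 138.9 ± 5.09 to 113.9 ± 1.46 TPM (log2 change -0.28 ± 0.0324 SE, adjusted p by limma = 0.006743). This call was lost without the variance trend, with the replicate block and with siDUSP6 replicate 1 alone (adjusted p up to 0.2132). Its relative XPO5 had a log2 fold change of -0.11 in the same libraries. ERH, a small protein that binds DGCR8, fell from 312.8 ± 0.736 to 283.5 ± 8.3 TPM (adjusted p by limma = 0.03135). The 2 annotated pseudogenes that bear its name were listed at a summed mean of 0.645 TPM. ZC3H12A, a ribonuclease that degrades cytokine mRNAs and can cut precursor microRNAs, rose from 17.2 ± 1.36 to 22.1 ± 1.14 TPM (adjusted p by limma = 0.04678). ZC3H12A failed the threshold in all 6 fits that leave out a library and ERH in 5 of them, and the highest adjusted p of any alternative was 0.3705 and 0.1599. RAN, the GTPase that exportin-5 needs, measured 551.7 ± 19.97 and 549.2 ± 35.2 TPM (adjusted p by limma = 0.9543).

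Of 30 genes of deadenylation, decapping and decay, the steps downstream of GW182 proteins, 2 rose, 1 fell and 27 did not pass, with a median of 0.0011 and 3 of 30 genes called, beside 3.86% of all genes tested. PAN2, a poly(A) nuclease, rose from 8.78 ± 0.375 to 12.2 ± 0.946 TPM (log2 change 0.43, adjusted p by limma = 0.02707), and BTG1, a cofactor of the CCR4-NOT deadenylase, from 462.3 ± 6.98 to 516.9 ± 11.3 TPM (adjusted p by limma = 0.01419). PABPC1, the poly(A)-binding protein, fell from 874.3 ± 4.09 to 830.5 ± 5.59 TPM (adjusted p by limma = 0.03588). Its name is borne by 13 annotated pseudogenes, which could share its reads and were listed at a summed mean of 0.225 TPM. PAN2 and PABPC1 failed the threshold in all 6 fits that leave out a library (adjusted p in any alternative up to 0.2611 and 0.3329). BTG1 failed it without siNC replicate 1 or 2 (up to 0.2231 in any alternative).

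Loading of a duplex into Argonaute needs the HSP70 and HSP90 chaperones. Of 13 such genes, all tested, 2 rose, 0 fell and 11 did not pass, with a median of 0.0045 and 15.4% called, beside 3.86% of all genes tested. AHSA1, an activator of HSP90, rose from 179.7 ± 1.05 to 206.3 ± 7.07 TPM (log2 change 0.20, adjusted p by limma = 0.01754). HSP90AA1, the inducible HSP90, rose from 786.8 ± 9.34 to 844.6 ± 9.37 TPM (log2 change 0.10, adjusted p by limma = 0.0235). HSP90AB1, the more abundant HSP90 gene, lay lower in every siDUSP6 library, at means of 1901 TPM in siNC and 1868 TPM in siDUSP6. It did not pass (log2 change -0.03, adjusted p by limma = 0.2951). HSP90AA1 failed the threshold in all 6 fits that leave out a library and AHSA1 in 5, at adjusted p of up to 0.2558 and 0.2274 in any alternative.

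Among genes for proteins that bind, sense or edit double-stranded RNA, several sensors rose. Of 24 such genes 19 were tested, of which 6 rose, 1 fell and 12 did not pass, with a median log2 fold change of 0.0005. Called genes made up 36.8% of this list, 0 of 10 members and 3.86% of all genes, and the difference between the lists was not tested. IFIH1, a cytoplasmic sensor of long double-stranded RNA, measured 104.6, 100.5 and 104.8 TPM in siNC and 128.6, 130.6 and 128.3 TPM in siDUSP6 (log2 change 0.32, adjusted p by limma = 0.001967). RIGI, a sensor of RNA ends, measured 62.2, 63.6 and 62.4 TPM in siNC and 79.2, 83.25 and 80.97 TPM in siDUSP6 (log2 change 0.37, adjusted p by limma = 0.00196). For both genes every siDUSP6 library lay well above every siNC library. OAS2 and OAS1, synthetases that double-stranded RNA activates, rose by 0.29 and 0.24 on the log2 scale (adjusted p by limma = 0.001007 and 0.001257). These 4 calls held whenever 1 library was left out and were lost with siDUSP6 replicate 1 alone (adjusted p up to 0.1451), that of OAS1 also without the variance trend. OAS3 and ADAR also rose and are named after their values were seen. ADAR, the editing enzyme, rose from 180.9 ± 4.35 to 207.2 ± 2.69 TPM (adjusted p by limma = 0.01129), and OAS3 rose from 226.9 ± 4.5 to 260.6 ± 3.2 TPM (adjusted p by limma = 0.006773). ADAR missed the threshold without siNC replicate 1, without siDUSP6 replicate 1, without the variance trend, with the replicate block and with siDUSP6 replicate 1 alone (adjusted p up to 0.2033). OAS3 missed it without the variance trend and with siDUSP6 replicate 1 alone (up to 0.1843). The endosomal sensors TLR3, TLR7 and TLR8 lay below a mean of 1 TPM and were not tested. All genes of this list together gave 1896 to 1913 TPM in siNC and 2053 to 2076 TPM in siDUSP6.

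**Figure D4:**
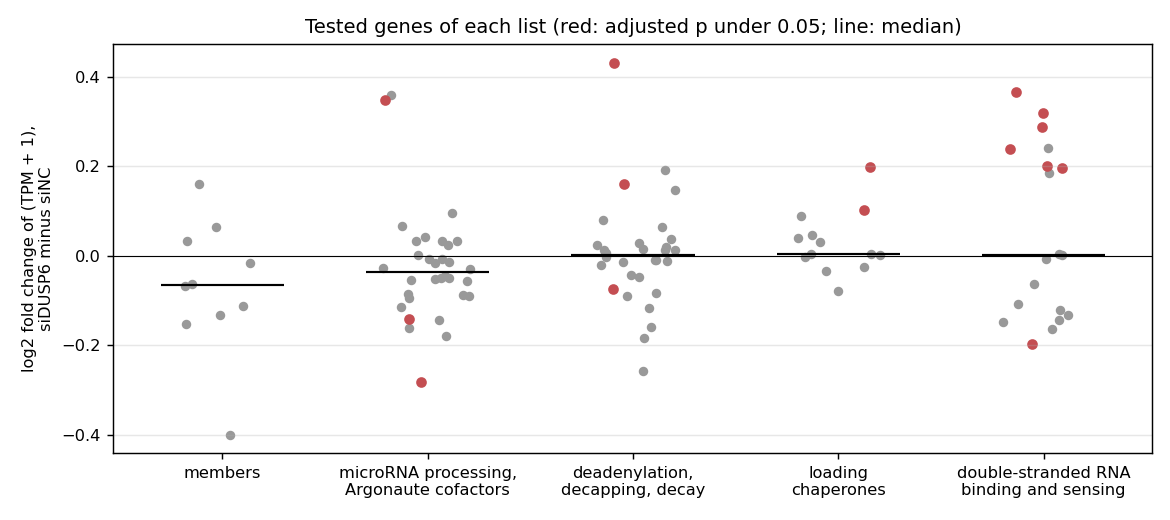
Log2 fold change of (TPM + 1), siDUSP6 minus siNC (y axis), for each tested gene of the members and of 4 lists around them (x axis), with called genes in red and a line at each median. No member is red, whereas 7 of 19 double-stranded RNA-binding and sensing genes are, 6 above 0 and 1 below.

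The promoters of AGO4 and XPO5, the members with the lowest fold change and with siDUSP6 libraries all below siNC, are shown beside that of IFIH1, a called sensor chosen after its motifs were seen. Each stretch is the 250 bases before the annotated start (RefSeq, GRCh38.p14), written 5′ to 3′ on the gene's strand. In XPO5 the capitals mark GC boxes (GGGCGG on either strand, which overlap there). In AGO4 no GC box was found. In IFIH1 the capitals mark interferon-type elements, GAAANNGAAA or GAAANGAAA on either strand, 2 of which overlap.
AGO4, chr1:35807766-35808015, plus strand: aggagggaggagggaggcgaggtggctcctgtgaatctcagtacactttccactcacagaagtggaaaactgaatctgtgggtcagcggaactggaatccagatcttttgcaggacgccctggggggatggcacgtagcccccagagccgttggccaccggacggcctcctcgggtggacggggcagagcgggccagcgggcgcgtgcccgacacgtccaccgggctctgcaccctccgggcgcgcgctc
XPO5, chr6:43576039-43576288, minus strand: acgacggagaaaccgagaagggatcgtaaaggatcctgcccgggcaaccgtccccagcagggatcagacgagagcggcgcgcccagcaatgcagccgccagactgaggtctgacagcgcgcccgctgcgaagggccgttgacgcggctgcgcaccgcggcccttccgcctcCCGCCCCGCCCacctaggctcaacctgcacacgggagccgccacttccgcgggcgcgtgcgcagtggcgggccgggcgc
IFIH1, chr2:162318685-162318934, minus strand: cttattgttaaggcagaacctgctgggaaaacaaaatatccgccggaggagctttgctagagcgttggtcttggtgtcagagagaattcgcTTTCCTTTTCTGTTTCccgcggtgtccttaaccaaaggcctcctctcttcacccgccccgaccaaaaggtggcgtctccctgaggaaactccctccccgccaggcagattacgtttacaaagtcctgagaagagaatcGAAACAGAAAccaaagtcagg
IFIH1 held 3 matches to the interferon-type letters. Of the 9 members with a RefSeq promoter window 0 held one, against 6.74% of the 27305 genes with such a window, or 6.17% of those tested here. At such shares 0 among 9 genes says little about the members. Of the 5 called and raised double-stranded RNA genes with a promoter 4 held a match, but these genes were picked because they rose in these same data. GC boxes stood in 8 of the 9 members and in 46.2% of all genes with a window, or 73.2% of those tested here. A match is a description of letters in these windows and says nothing about binding.

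By the root-mean-square difference of profiles over the 6 libraries, each centred on its own mean and scaled by its own SD, the genes most like AGO2 among those that averaged 5 TPM or more were OCIAD2 (0.0618 SD), SLC9B2 (0.129 SD) and SIGLEC1 (0.14 SD). OCIAD2 measured 20.4, 20.8 and 21.3 TPM in siNC and 23.5, 28.75 and 22.4 TPM in siDUSP6, so it too was highest in siDUSP6 replicate 2. Those most like DICER1 were SRSF7 (0.117 SD), HNRNPH1 (0.15 SD) and TRMT61B (0.162 SD). SRSF7 measured 98.4, 104.6 and 110.0 TPM in siNC and 98.3, 96.2 and 95.02 TPM in siDUSP6. None of these 6 genes was called by limma, and with 6 libraries that share 2 treatments a close likeness is a description.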

How the data were processed

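RNA was extracted with TRIzol and sequenced after a stranded mRNA library kit, per the labels' protocols. TPM per gene and library, in 1 deposited table, are the authors' own values. Per the submitters' processing notes, GRCh38, StringTie, HISAT2 and fastp were used, with no versions; the annotation release is not given in the sources used here. After 21 rows without a gene ID were left out, 63241 genes remained, of which 58228 IDs matched GENCODE release 29, used for coordinates and overlaps. Depth is unknown. Log2(TPM + 1) was fitted by group in limma 3.58.1 under R 4.3.3, with a variance trend, for genes averaging 1 TPM or more. Benjamini-Hochberg adjustment covered all 14602 genes, calls were made at an adjusted p under 0.05 and tests were two-sided. An exact permutation test of 3 against 3 libraries cannot give a p under 0.1, so none is printed. Fold changes on the log2(TPM + 1) scale understate those of low genes. Members and lists were chosen with earlier results of these data known.

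Named were all members, DUSP6, in each list up to 4 called genes by size of change (or 2 by p where none was called), and the 3 genes most like AGO2 and DICER1. Other genes are given as relatives or partners of members, and 1 called gene is not reported here by name. Alternatives changed the pseudocount (0.1 or 5), the filter (none or 5 TPM) and the scaling (median-of-ratios or quantile), and further ones were TPM without mitochondrial and the 50 most abundant genes, no or a robust variance trend, the replicate number as a block, and each library left out. A fit of siDUSP6 replicate 1 alone against siNC was added after the data were seen, because of the conflicting treatment field.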

Additional observations from a re-analysis of the deposited data

How the results depend on the processing

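The count of called members was 0 in all 17 alternatives, and of 170 member values 161 kept their sign and stayed short of the threshold. Signs turned for AGO3 after median-of-ratios scaling (0.0043) and quantile normalization (0.0134), for DROSHA with siDUSP6 replicate 1 alone (-0.0325), and when 1 library was left out for AGO3 (-0.1593 to 0.0989), TARBP2 (-0.1633 to 0.0512) and TNRC6A (-0.0547 to 0.0992). Over all alternatives the lowest adjusted p of a member was 0.1029, for AGO4 with the replicate block. Over all genes, 564 calls became 360 with no filter, 124 without the variance trend and 222 to 266 with 1 library left out, where fewer libraries entered each fit. With siDUSP6 replicate 1 alone there were 49, the lone library being assumed to vary like the others. The cause of the other differences was not tested. Higher genes made up 61.35% of calls and 74.49% after median-of-ratios scaling. The replicate block gave 121 calls. Same-numbered libraries correlated at 0.0252, -0.0365 and 0.048 in their deviations, and 3 of 6 libraries correlated best with their own number. With 3 libraries a group, these values cannot decide whether same-numbered libraries belong together. Leaving out 1 library kept the AGO2 share of Argonaute TPM higher in siDUSP6, by 4.17 to 6.96 percentage points against 5.36 with all libraries. The difference of the Argonaute sums, 2.9 TPM with all libraries, was 0.327 TPM without siDUSP6 replicate 2 and -0.583 TPM with siDUSP6 replicate 1 alone. Unknown depth limits what can be said of members near 5 TPM.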
